A study of Mus musculus with 12 samples.

Results

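The CD28 family and the coinhibitory receptors of T cells were described here over 12 arrays of activated helper T cells from Dgcr8-deficient and wild-type mice. The genes were chosen by symbol: Cd274, Pdcd1lg2, Pdcd1, Ctla4, Cd28, Icos, Btla, Lag3, Havcr2 and Tigit. Probes were assigned to them through the RefSeq accession printed on the array. Of the 10 genes, 9 had a probe and all 9 were tested, among 14745 genes tested and 17178 genes with a named probe. Tigit had no matched probe and was not analysed here.

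The groups were Dgcr8-deficient cells with miR-29b, Dgcr8-deficient cells with control miRNA, wild-type cells with miR-29 inhibitors, and wild-type cells with control inhibitors. Each held 3 arrays, from the mice numbered 2, 3 and 4 of its genotype, and arrays with the same number within a genotype were taken as one mouse. All mice were C57BL/6 and aged 7 weeks, and all cells were stimulated for 65 hours through CD3 and CD28 and then kept in IL-2 for 48 hours. Both transfections, on days 1 and 4, were by electroporation, and RNA was taken on day 5, 24 hours after the second one. Dgcr8 encodes the RNA-binding partner of Drosha, without which most microRNAs are not made. The labels do not name the driver of the deletion. Because CD28 itself was one of the 2 receptors engaged by the stimulating antibodies, every level below was measured after that engagement, in every group.

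T cells need a signal through the antigen receptor together with a costimulatory signal, for which CD28 is the main receptor. CTLA-4 competes with CD28 for the same ligands and restrains it, and PD-1 (Pdcd1) restrains signalling when it binds PD-L1 (Cd274) or PD-L2 (Pdcd1lg2). BTLA, LAG-3 and TIM-3 (Havcr2) are further inhibitory receptors that activated T cells can carry, and ICOS is an inducible costimulator tied to T cell help for B cells. PD-L1 is made by many cell types, activated T cells included, and interferon gamma is its best known inducer.

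Transfected and inhibited microRNAs belonged to one family. The mature sequences from RefSeq (GRCm38.p6) are shown because both treatments act through them, with the seed, bases 2 to 8, in capitals.
miR-29a-3p: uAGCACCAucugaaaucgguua
miR-29b-3p: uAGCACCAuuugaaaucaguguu
miR-29c-3p: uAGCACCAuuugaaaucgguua
All 3 carry the seed AGCACCA. Mature miR-29b is encoded at chr6:31063025-31063047 on the minus strand and at chr1:195037091-195037113 on the plus strand.

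A level is the log2 signal of a gene minus the array's 75th percentile, and it is read across arrays for 1 gene, not between genes. Differences are log2 differences of group means ± SE from one limma fit of all 12 arrays (n = 3 per group). The same fit gave the p-values, adjusted by Benjamini-Hochberg over all 14745 genes. A gene passed when its adjusted p was under 0.05. These p-values set a difference against the spread of arrays within groups. The fit takes all 12 arrays as independent, although arrays of the same mouse are among them. Values called blocked come from a fit that also models the mouse.

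The arrays held between 27377 and 32218 probes well above background out of 41174, and 0 spots were saturated. Dgcr8 itself lay between -1.25 and -0.15 in Dgcr8-deficient cells and between -0.16 and 1.0 in wild-type cells. Its difference between the control groups was -1.06 ± 0.39 and did not pass (limma adjusted p = 0.0759), and whether its probe lies in the deleted part is unknown. On the miR-29b array of Dgcr8-deficient mouse 3 the scanner software marked 1458 spots as outliers, against 68 to 193 on the other 11 arrays. Both arrays of that mouse also had Y-linked transcripts near background, unlike the other 10, so counts of genes past the threshold are also given without this mouse. The labels call the cells helper T cells. Cd4, their defining coreceptor, lay between -0.38 and 0.17 on all 12 arrays, and its level differed by 0.16 ± 0.18 between the control groups (limma adjusted p = 0.629).

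Dgcr8-deficient control cells carried more RNA of both PD-1 ligands than wild-type control cells, more Lag3 and Cd28, and less Icos. The differences ranged from 10.4-fold higher for Cd274 to 1.62-fold lower for Icos. PD-1 itself and CTLA-4 showed no difference past the threshold. Of the 9 genes, 5 passed, 4 higher and 1 lower, where 22.2% of all genes passed, 9.23% higher and 13% lower. The groups did not overlap for 6 of the 9, which was so for 36.8% of all genes. The median difference of the 9 genes was 1.25, against -0.08 over all genes, and 5 of the 9 differed by more than 1 on the log2 scale, as did 18% of all genes. Genotype and the kind of control oligonucleotide cannot be told apart here, since one genotype received a control miRNA and the other control inhibitors. Nor can a change in the share of a cell type be told apart from a change in RNA per cell, as the RNA came from whole cultures.

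**Figure D1:**
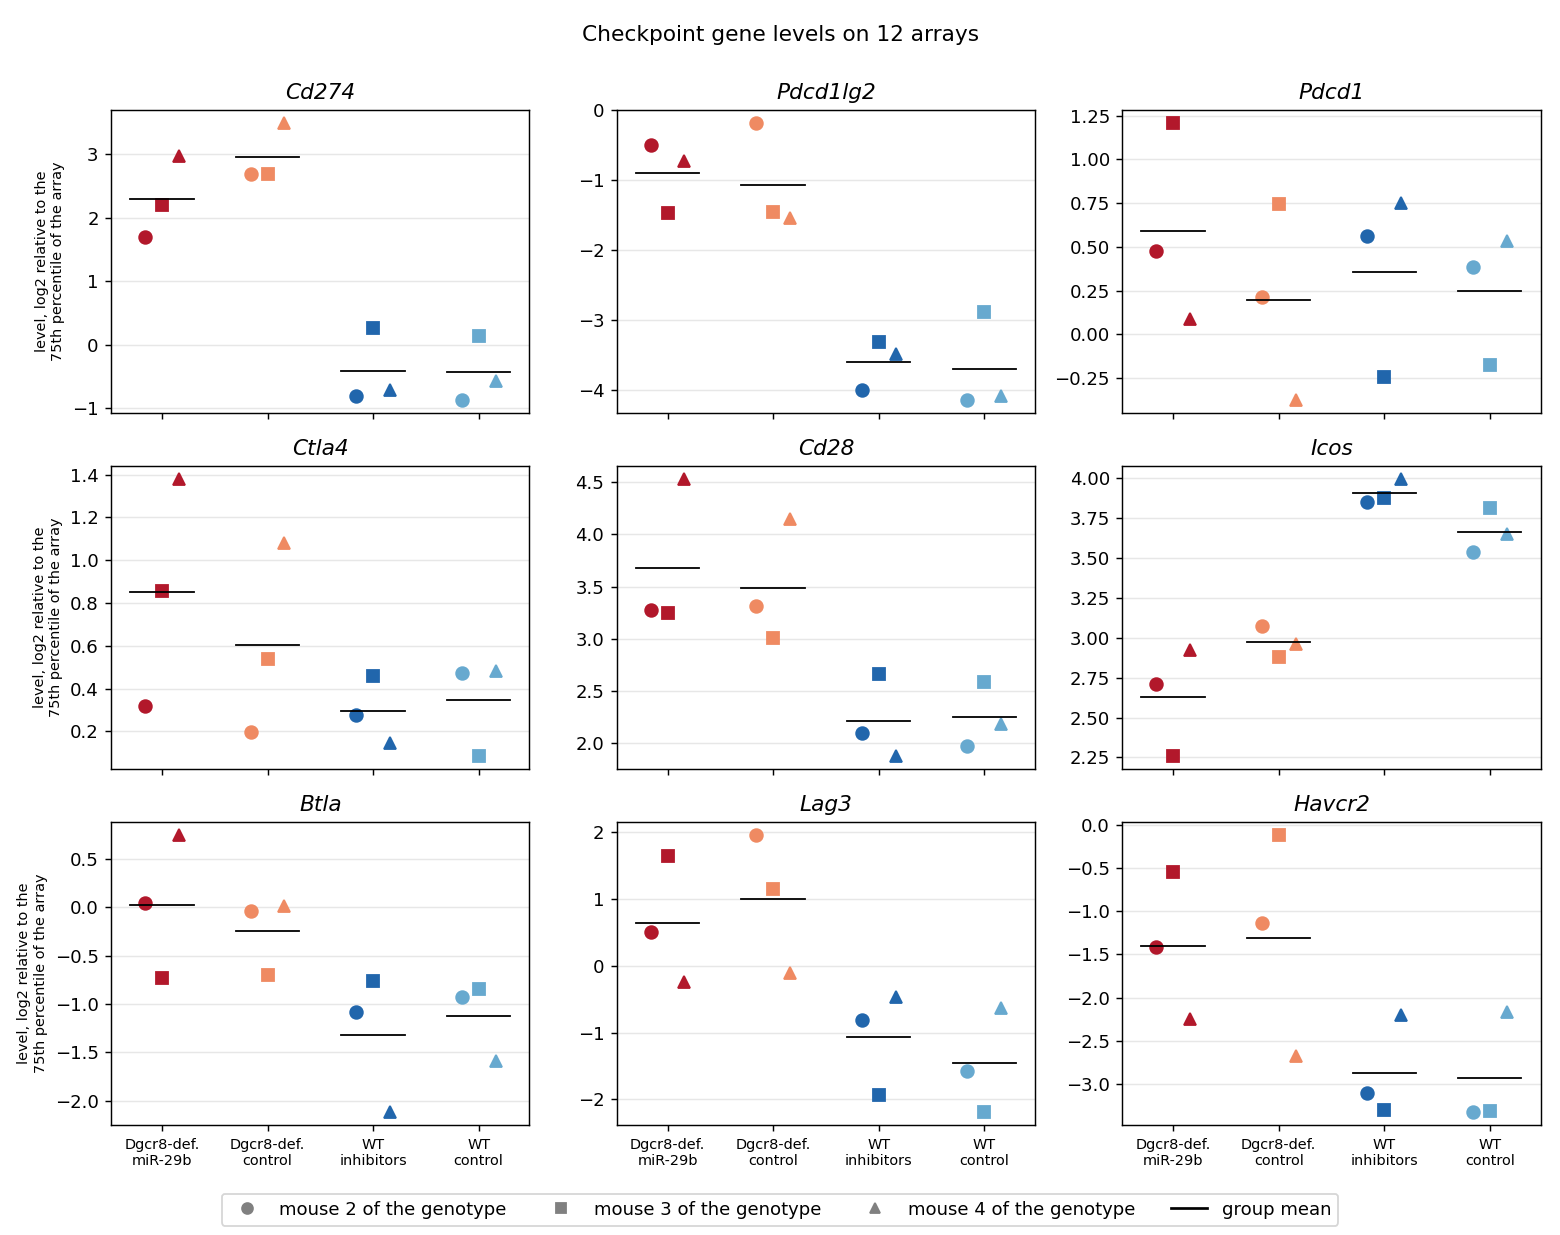
Level of each of the 9 measured checkpoint genes (y axis, log2 over the array's 75th percentile) in the 4 groups (x axis), 1 point per array, with the mouse given by the marker and the group mean by a line. The 6 Dgcr8-deficient arrays lie above the 6 wild-type arrays for Cd274, Pdcd1lg2, Cd28, Btla and Lag3, and below them for Icos.

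Cd274, the gene of PD-L1, had levels of 1.70, 2.20 and 2.97 with miR-29b and 2.68, 2.69 and 3.48 with control in the Dgcr8-deficient mice 2, 3 and 4. In the wild-type mice it had -0.80, 0.26 and -0.71 with inhibitors and -0.86, 0.14 and -0.57 with control. Every Dgcr8-deficient array was above every wild-type array. Between controls the difference was 3.38 ± 0.42, or 10.4-fold (95% interval of the log2 difference 2.46 to 4.3, limma adjusted p = 0.000299). It was 3.55 within slide 1 and 3.35 within slide 3, the slides that held both genotypes. Its adjusted p stayed at or under 0.00259 under 19 alternative settings. The summed signal of 10 B cell markers was higher with it, at 5.14 to 11.0 in Dgcr8-deficient controls and 0.484 to 0.618 in wild-type controls, and its part in the results for Cd274, Pdcd1lg2 and Btla was not tested.

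Pdcd1lg2, the gene of PD-L2, had levels of -0.50, -1.47 and -0.73 with miR-29b and -0.19, -1.46 and -1.54 with control in Dgcr8-deficient cells. Wild-type cells had -3.99, -3.30 and -3.49 with inhibitors and -4.13, -2.88 and -4.08 with control. The genotypes did not overlap, and both wild-type groups were low on all of their arrays. The control difference was 2.63 ± 0.45, or 6.20-fold (limma adjusted p = 0.00208). It was 3.94 within slide 1 and 1.34 within slide 3, so its size differed more between slides than that of Cd274. It passed under all 19 alternative settings, with values from 1.95 to 3.04.

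Both ligand genes lie next to each other on mouse chromosome 19, with 0 protein-coding genes between them in the RefSeq annotation. The RefSeq windows around their starts are shown because these neighbours differed in the same direction (GRCm38.p6, plus strand, 250 bases before to 50 after the annotated start).
Cd274, chr19:29367188-29367487: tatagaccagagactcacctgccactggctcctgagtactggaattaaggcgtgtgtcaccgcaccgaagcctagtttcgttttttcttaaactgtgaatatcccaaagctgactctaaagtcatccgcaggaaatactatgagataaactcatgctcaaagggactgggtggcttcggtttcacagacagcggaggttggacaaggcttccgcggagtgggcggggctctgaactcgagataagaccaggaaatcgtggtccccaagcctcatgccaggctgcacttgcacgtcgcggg
Pdcd1lg2, chr19:29410669-29410968: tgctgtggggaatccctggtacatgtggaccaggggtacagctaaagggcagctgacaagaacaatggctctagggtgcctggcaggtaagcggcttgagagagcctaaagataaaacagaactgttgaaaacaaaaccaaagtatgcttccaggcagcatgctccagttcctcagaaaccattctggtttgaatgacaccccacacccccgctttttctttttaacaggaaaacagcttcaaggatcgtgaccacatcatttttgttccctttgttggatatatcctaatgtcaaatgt
Each was searched on both strands for 3 motifs, and letters would stand in capitals where one matched. The core of the interferon-stimulated response element, GAAA, any 2 bases and GAAA again, is in 3.44% of 32851 windows of the same length, the AP-1 site TGANTCA in 7.81% and the T-box site AGGTGTGA in 1.28%. Neither window holds any of the 3. Among the 7 checkpoint genes with a window in the table, the only match was an AP-1 site at bases 51 to 57 of the Havcr2 window.

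Cd28 itself was measured by 10 copies of one probe on each array, whose SD within an array was 0.03 to 0.08, well under the differences between mice. Its levels were 3.27, 3.25 and 4.53 with miR-29b and 3.32, 3.00 and 4.15 with control in Dgcr8-deficient cells. In wild-type cells they were 2.09, 2.66 and 1.88 with inhibitors and 1.97, 2.58 and 2.18 with control. Mouse 4 was the highest of the Dgcr8-deficient mice in both groups, and mouse 3 the highest of the wild-type mice in both groups. Only arrays of these mice were on slide 3, which was scanned on another day than the other slides. The genotypes did not overlap. The control difference of 1.25 ± 0.40, or 2.37-fold, passed only narrowly (limma adjusted p = 0.0495). It was 1.35 and 1.57 within the 2 shared slides. It lost the call in 10 of 19 alternative settings, with adjusted p up to 0.165 when the Dgcr8-deficient control array of mouse 4 was left out.

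Icos, the inducible costimulator, went the other way. Levels were 2.71, 2.26 and 2.92 with miR-29b and 3.07, 2.88 and 2.96 with control in Dgcr8-deficient cells. Wild-type cells had 3.85, 3.88 and 3.99 with inhibitors and 3.53, 3.81 and 3.65 with control. All 6 wild-type arrays were above all 6 Dgcr8-deficient arrays. Between controls Icos differed by -0.69 ± 0.18, or 1.62-fold lower (limma adjusted p = 0.0214), and by -0.46 and -0.85 within the shared slides. With the mouse modelled as a random effect it no longer passed (blocked adjusted p = 0.0549), so the blocked count is 4 of 9, where 20.4% of all genes passed. It lost the call in 6 of 19 alternative settings, among them each fit without Dgcr8-deficient control 3 or 4 or wild-type control 3 or 4.

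Ctla4 sits between Cd28 and Icos on mouse chromosome 1, with 0 other protein-coding genes on either side of it within that cluster. Its levels were 0.32, 0.85 and 1.38 with miR-29b and 0.20, 0.54 and 1.08 with control in Dgcr8-deficient cells, against 0.28, 0.46 and 0.15 with inhibitors and 0.47, 0.09 and 0.48 with control in wild-type cells. The groups overlapped, and the control difference of 0.26 ± 0.29 did not pass (limma adjusted p = 0.624, 95% interval -0.39 to 0.91). Of the 3 neighbours, Cd28 was thus higher, Icos lower and Ctla4 not called either way.

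Pdcd1, which encodes PD-1, had levels of 0.48, 1.21 and 0.09 with miR-29b and 0.22, 0.75 and -0.37 with control in Dgcr8-deficient cells. Wild-type cells had 0.56, -0.24 and 0.75 with inhibitors and 0.39, -0.17 and 0.53 with control. The 4 groups overlapped throughout. The control difference was -0.05 ± 0.39, with a 95% interval of -0.91 to 0.81 (limma adjusted p = 0.954), and leaving out single arrays turned its sign.

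Lag3, an inhibitory receptor that binds MHC class II, had 0.51, 1.65 and -0.24 with miR-29b and 1.95, 1.15 and -0.11 with control in Dgcr8-deficient cells. Wild-type cells had -0.81, -1.94 and -0.47 with inhibitors and -1.58, -2.19 and -0.63 with control. Mouse 4 was the lowest of the Dgcr8-deficient mice and also the highest of the wild-type mice, yet the genotypes did not overlap. The control difference was 2.46 ± 0.65, or 5.52-fold (limma adjusted p = 0.0206), and 3.53 and 2.08 within the shared slides. Leaving out the control array of Dgcr8-deficient mouse 2 or 3, or of wild-type mouse 2 or 3, ended the call (adjusted p up to 0.0791).

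Havcr2, the gene of TIM-3, had -1.42, -0.55 and -2.25 with miR-29b and -1.14, -0.12 and -2.67 with control in Dgcr8-deficient cells, against -3.10, -3.30 and -2.20 with inhibitors and -3.32, -3.31 and -2.16 with control in wild-type cells. Both arrays of Dgcr8-deficient mouse 4 were below both arrays of wild-type mouse 4, so the genotypes overlapped. The control difference of 1.62 ± 0.65 did not pass (limma adjusted p = 0.106), but passed with slide (adjusted p = 0.00924) or scan day (adjusted p = 0.0228) in the model, and without the control array of Dgcr8-deficient mouse 4 (2.30, adjusted p = 0.0225). It was 1.02 without that of mouse 3, 0.63 with the mean of its probes, and 2.18 and 0.63 within the shared slides. A second Havcr2 probe was well above background on 3 of 12 arrays and differed by -0.37 ± 0.43, so the 2 probes disagree in sign.

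Btla, the receptor of HVEM, had 0.05, -0.73 and 0.75 with miR-29b and -0.03, -0.70 and 0.01 with control in Dgcr8-deficient cells, against -1.09, -0.76 and -2.11 with inhibitors and -0.93, -0.84 and -1.59 with control in wild-type cells. The genotypes did not overlap, although mouse 3 of each genotype lay close to the boundary. The control difference of 0.88 ± 0.44 did not pass (limma adjusted p = 0.194) and did so only with slide in the model (adjusted p = 0.0110). It was 0.90 and 0.85 within the shared slides.

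**Figure D2:**
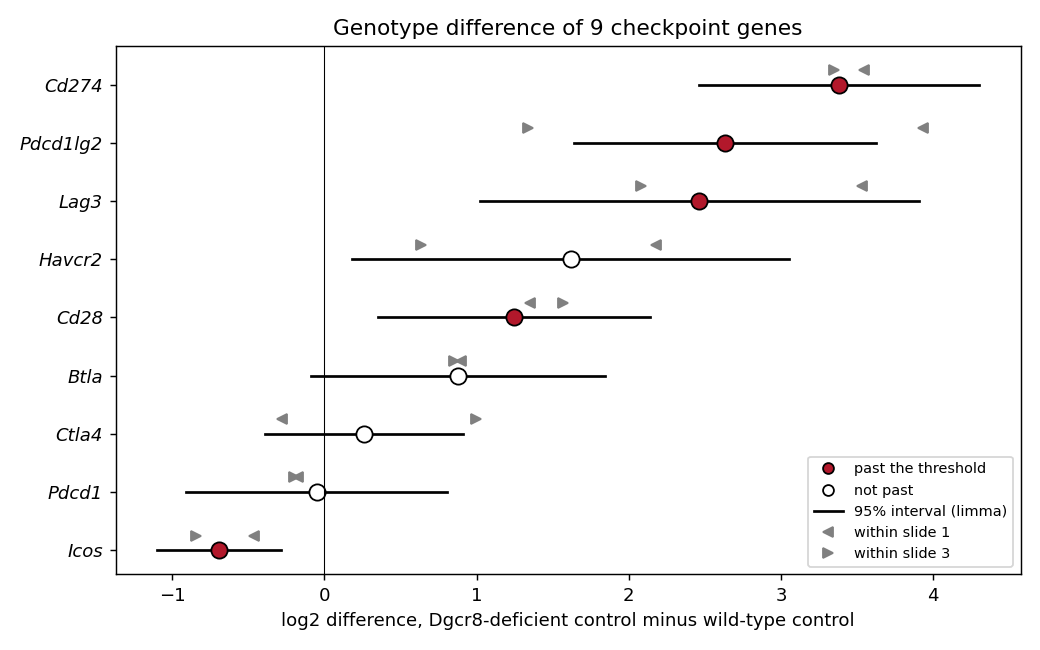
Log2 difference between Dgcr8-deficient control and wild-type control arrays (x axis) for the 9 genes (y axis), with the limma 95% interval and the values within the 2 slides that held both genotypes. Filled points passed the threshold (Cd274, Pdcd1lg2, Lag3, Cd28 and Icos), and the slide values of Pdcd1lg2 are 3.94 and 1.34.

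The counts without Dgcr8-deficient mouse 3 were the same, at 5 of 9 between genotypes and 0 of 9 for miR-29b. As a description of likeness, Pearson's r was taken over the 12 arrays between each called member and every other gene measured on all arrays. These arrays come from 6 mice of 2 genotypes, so that r reflects the genotype difference first. Closest to Cd274 were Fam83d (r = 0.994), Tm9sf2 (r = 0.992) and Parp12 (r = 0.992), and closest to Pdcd1lg2 were Tns4 (r = 0.982), Mcf2l (r = 0.980) and Mdfic (r = 0.979). For Cd28 they were Nemp1 (r = 0.996), Kansl1l (r = 0.989) and Slc35a5 (r = 0.985). For Icos they were Impa1 (r = 0.981), Phlda1 (r = 0.978) and Eny2 (r = 0.970), and for Lag3 Tapbpl (r = 0.976), Glrx (r = 0.975) and Ccno (r = 0.971).

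Of 13 tested genes of the interferon gamma route to Cd274, 6 were higher in Dgcr8-deficient controls and 0 lower, where 9.23% of all genes were higher and 13% lower. Their median difference was 1.22, against -0.08 over all genes. Ifng, the cytokine gene, had 4.59, 3.97 and 2.54 in Dgcr8-deficient controls and -2.27, -2.86 and -2.67 in wild-type controls, a difference of 6.30 ± 0.52 (limma adjusted p = 2.97e-05). The interferon regulatory factors Irf1, Irf8 and Irf9 differed by 1.77, 1.78 and 1.80. Stat2 and the receptor chain Ifngr2 also passed, at 1.79 and 1.48. The receptor chain Ifngr1 and the kinases Jak1 and Jak2 did not pass, at -0.08, -0.20 and 0.34, nor did Cmtm4, whose product stabilises PD-L1, at -0.93, and Irf2, Socs1 and Stat3.

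Over all pathway lists around the checkpoint genes, 35 of 124 genes passed between the control groups, or 28.2%, where 22.2% of all genes did. Among 15 tested ligands and counter-receptors, 5 were higher and 1 lower. Icosl, the ligand of ICOS, was higher by 2.37 ± 0.37 (limma adjusted p = 0.00127), while Icos was lower. H2-Aa and H2-Ab1, which encode the MHC class II chains that LAG-3 binds, were higher by 5.08 and 2.66. Lgals3, the gene of galectin-3, which can bind LAG-3, and the nectin gene Nectin3 were higher by 1.60 and 1.35, and Ceacam1 was lower at -1.84. The CD28 and CTLA-4 ligands Cd80 and Cd86 did not pass, at -0.02 and -0.48, nor did Tnfrsf14, which encodes the BTLA ligand HVEM, at 0.59. Of 14 other inhibitory receptors, Cd244a (1.91), Lair1 (1.37) and Cd72 (1.81) were higher and the costimulatory Cd226 (-2.42) was lower. The B cell marker signal was higher on the same arrays, and its part in the results for Icosl, H2-Aa, H2-Ab1 and Cd72 was not tested.

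In the TNF receptor family list of 13, Tnfrsf4 (1.25), Tnfrsf18 (0.81) and Tnfsf9 (2.03) were higher, and Cd40lg (-0.96) and Tnfsf14 (-1.02) lower, and Tnfsf8 (1.65) passed by the blocked fit alone. These encode the costimulators OX40 and GITR, the ligand of 4-1BB, the CD40 ligand, LIGHT and the CD30 ligand. Of 18 signalling components downstream of CD28 and the T cell receptor, 1 was higher, Malt1 at 1.03, and 2 were lower, the kinase gene Lck at -0.67 and the adaptor gene Lat at -0.55. Lat did not pass with the mouse modelled (blocked limma adjusted p = 0.0889). Of 18 phosphatases and inhibitory adaptors, Rnf128, a ubiquitin ligase of T cell anergy, was lower at -3.57 and the other 17 did not pass. Trat1, whose product binds CTLA-4 and helps it to the cell surface, was lower at -3.96, and Lrba, which protects CTLA-4 from degradation, was higher at 0.86, among 13 post-transcriptional and trafficking regulators. The signalling, phosphatase and trafficking lists thus each had a smaller share past the threshold than the 22.2% of all genes.

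Of 20 transcription factors linked to checkpoint receptor genes, 5 were higher and 3 lower, where 9.23% of all genes were higher and 13% lower. Eomes and Maf, both tied to inhibitory receptor expression in T cells, were higher by 4.61 and 3.55, and Irf4, Prdm1 and Nfatc2 by 1.86, 1.24 and 0.64. Foxp3, the regulatory T cell factor that sustains Ctla4, was lower at -1.72, Id3 at -3.04 and Batf at -0.56. Batf did not pass with the mouse modelled (blocked limma adjusted p = 0.100).

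Markers of other cell types also differed by genotype, where 9.23% of all genes were higher and 13% lower. Of 10 B cell markers, 9 were higher in Dgcr8-deficient controls and Pax5 was not (0.00 ± 0.36). Of the 9, Fcrla and Ebf1 were well above background on 0 wild-type arrays, so they were kept through the Dgcr8-deficient arrays alone. Blk was well above background on 1 of 3 wild-type controls. The summed signal of the 10 markers, with the 75th percentile of each array set to 1, was 5.94 to 12.5 with miR-29b and 5.14 to 11.0 with control miRNA in Dgcr8-deficient cells. It was 0.609 to 0.711 with inhibitors and 0.484 to 0.618 with control inhibitors in wild-type cells. B cells can carry PD-L1, PD-L2, BTLA, the ICOS ligand and MHC class II. The NK cell sum was 0.571 to 0.716 with miR-29b, 1.11 to 1.66 with control miRNA, 0.173 to 0.205 with inhibitors and 0.101 to 0.177 with control inhibitors, and 2 of 7 tested markers were higher, Klrk1 and Eomes. Klrk1 was well above background on 1 of 3 wild-type controls. Eomes, also a T cell factor, made most of that sum in Dgcr8-deficient cells. Without it the sum was 0.0874 to 0.214 with miR-29b, 0.192 to 0.285 with control miRNA, 0.101 to 0.135 with inhibitors and 0.0616 to 0.135 with control inhibitors. Of 5 CD8 T cell markers, Gzmk, Prf1 and Runx3 were higher and Cd8a was not (0.26 ± 0.37). The sum of 9 myeloid and dendritic markers was 0.381 to 0.960 with miR-29b and 0.406 to 0.752 with control miRNA. It was 1.06 to 1.87 with inhibitors and 0.914 to 1.55 with control inhibitors. Itgax was higher and Fcgr3 and Adgre1 lower, and Itgax was well above background on 0 of 3 wild-type controls. Regulatory T cell markers summed to 122 to 204 in Dgcr8-deficient controls and 76.7 to 90.6 in wild-type controls. Of the 9, 3 were higher (Il2ra, Tnfrsf4 and Tnfrsf18) and 2 lower (Foxp3 and Gpr83). Tnfrsf4 and Tnfrsf18, also in the TNF receptor family list, made most of that sum in both control groups. Of 7 erythroid and platelet markers 0 passed in limma, 3 at an unadjusted p under 0.05. Of 11 CD4 T cell markers, Lck and Trat1 were lower and the other 9 did not pass. Their summed signal was 347.1 to 389.7 in Dgcr8-deficient controls and 418.5 to 501.3 in wild-type controls, without overlap, and their median difference was -0.33.

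**Figure D3:**
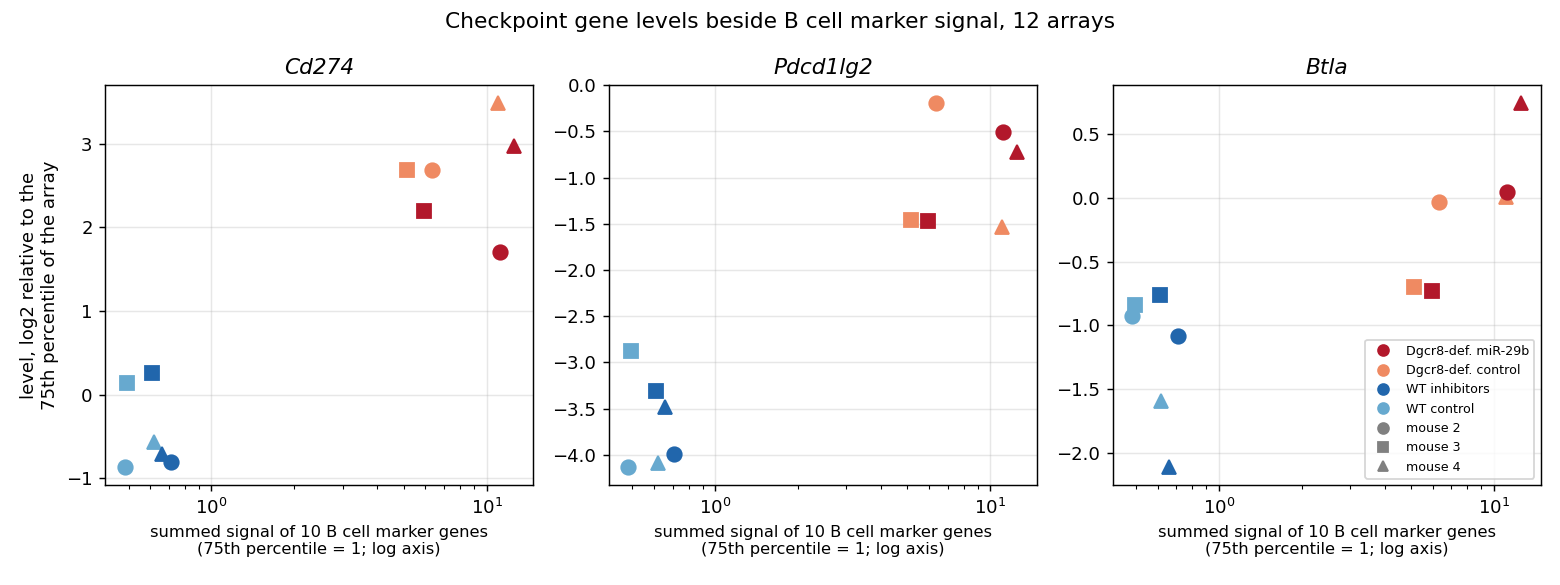
Level of Cd274, Pdcd1lg2 and Btla (y axis, log2 over the array's 75th percentile) against the summed signal of 10 B cell marker genes (log x axis, 75th percentile of the array set to 1), 1 point per array. The Dgcr8-deficient arrays lie at sums of 5.14 or more and the wild-type arrays at 0.711 or less, and within the Dgcr8-deficient mice the miR-29b array has the higher sum and the lower Cd274 level of each pair.

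With miR-29b in Dgcr8-deficient cells, Cd274 was lower and Pdcd1 higher in each of the 3 mice, and neither passed unless a block was in the model, the mouse or the slide for both and scan day for Cd274 alone. The comparison asks what a single returned microRNA changes in cells short of their own. With the arrays taken as independent, 0 of the 9 passed in limma, where 2.29% of all genes passed (338 genes), and 0 of the 9 had an unadjusted p under 0.05. The groups did not overlap for 0 of the 9, against 15.3% of all genes. With the mouse modelled, 2 of the 9 passed, where 20.5% of all genes did.

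Cd274 differed by -0.66 ± 0.42 (limma adjusted p = 0.564), and by -0.98, -0.49 and -0.51 within mice 2, 3 and 4. It was lower with miR-29b in 3 of 3 mice, as were 22.7% of all genes, and the blocked fit gave the same difference with an SE of 0.13 (blocked limma adjusted p = 0.0180). With slide (limma adjusted p = 0.0138) or scan day (limma adjusted p = 0.0191) in the model it passed as well. These are not separate tests, because both arrays of each Dgcr8-deficient mouse shared a slide that no other Dgcr8-deficient mouse was on. Slide thus separates these mice as the mouse block does, and scan day sets mouse 4 apart from the others. The level with miR-29b, 2.29 ± 0.64 (SD, n = 3), lay between 2.95 ± 0.46 in Dgcr8-deficient controls and -0.43 ± 0.51 in wild-type controls. The B cell marker sum was higher with miR-29b in each of the 3 mice.

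Pdcd1 differed by 0.39 ± 0.39 without the mouse in the model (limma adjusted p = 0.772), and by 0.26, 0.46 and 0.46 within mice. It was higher in 3 of 3 mice, as were 33% of all genes, and with the mouse modelled its SE was 0.10 (blocked limma adjusted p = 0.0376). With slide in the model, which separates the same mice, its limma adjusted p was 0.0446. The summed signal of 11 CD4 T cell markers was higher in the same mice, at 485.1, 494.2 and 527.7 with miR-29b and 389.7, 347.1 and 382.1 with control, with a median difference of 0.44. In limma 0 of these markers passed, where 2.29% of all genes did. With the block, where 20.5% of all genes passed, 6 of these markers were higher, Lck, Cd247, Cd3d, Cd6, Zbtb7b and Trat1, and 0 lower. Their part in the result for Pdcd1 was not tested. In every mouse the receptor and its ligand Cd274 thus differed in opposite directions. The other ligand, Pdcd1lg2, changed by -0.31, -0.01 and 0.81 within mice, without a shared direction, and by 0.16 ± 0.45 in all (limma adjusted p = 0.956).

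Icos was lower in 3 of 3 mice, by -0.37, -0.61 and -0.04, but passed neither without the block (-0.34 ± 0.18, limma adjusted p = 0.470) nor with it (blocked adjusted p = 0.114). Ctla4 was higher in 3 of 3 mice, at 0.12, 0.32 and 0.30 (blocked limma adjusted p = 0.281). Cd28, Btla, Lag3 and Havcr2 had both signs among the mice, with Lag3 spread from -1.45 in mouse 2 to 0.50 in mouse 3. Their differences were 0.19 ± 0.40, 0.26 ± 0.44, -0.36 ± 0.65 and -0.09 ± 0.65, and none passed in either limma fit.

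**Figure D4:**
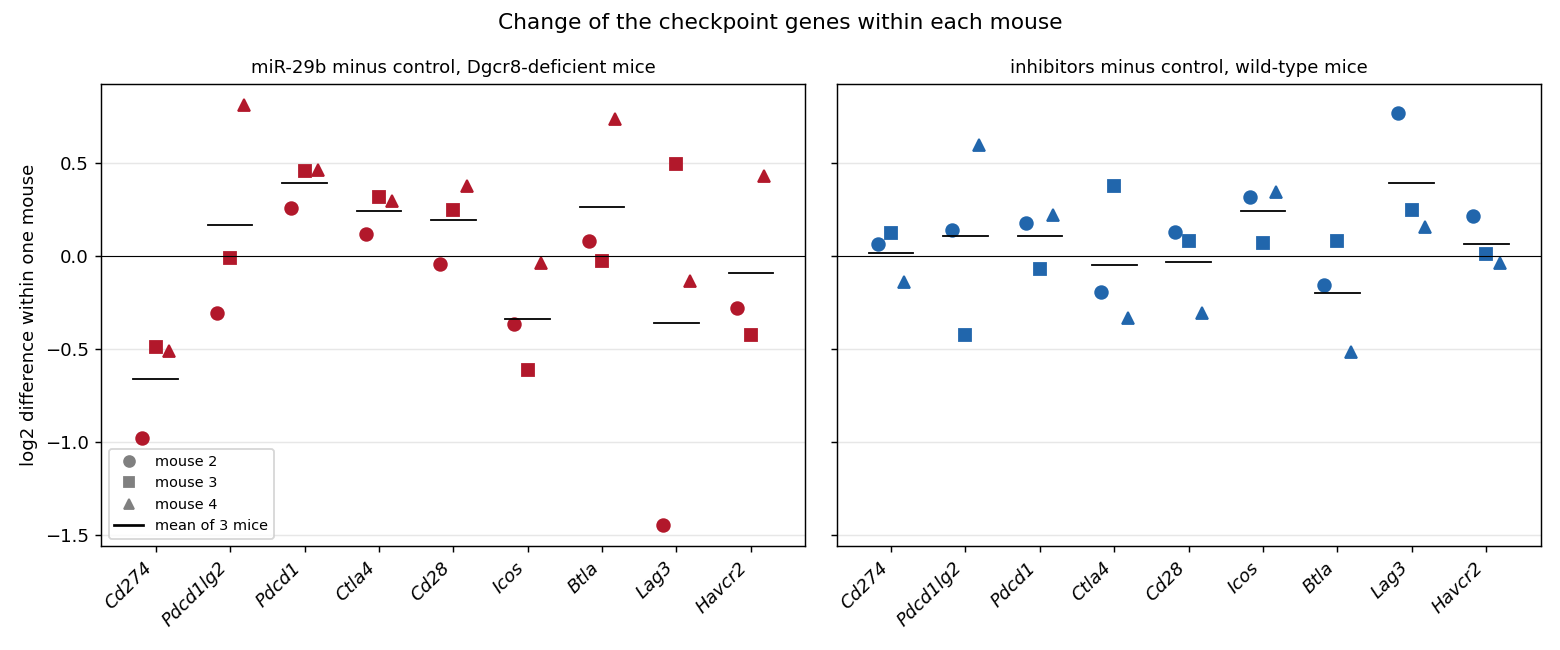
Log2 difference within each mouse (y axis) for the 9 genes (x axis), with miR-29b minus control in Dgcr8-deficient mice on the left and inhibitors minus control in wild-type mice on the right. Points are single mice and lines the mean of 3, and with miR-29b Cd274 is below 0 and Pdcd1 above 0 in all 3 mice.

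Along the interferon gamma route, Ifng fell by 2.97 ± 0.52 on the log2 scale (limma adjusted p = 0.0179), with levels of 1.1, 1.28 and -0.21 with miR-29b and 4.59, 3.97 and 2.54 with control. The other 12 tested genes of the route did not pass, Irf1 at -0.25 among them, and with the block Irf8 also passed (-0.89). This comparison shares its control arrays with the genotype comparison. Ifng thus stood at -2.97 with miR-29b against control and at 6.30 between the genotypes, and Cd274 at -0.66 and 3.38.

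Outside that route 3 listed genes passed. Eomes fell by 1.15 ± 0.21 on the log2 scale (limma adjusted p = 0.0220), and Adam17, a protease that sheds LAG-3 and other receptors from the cell surface, fell by 1.08 ± 0.17 (limma adjusted p = 0.0121). Tnfsf14, the gene of LIGHT, which shares the receptor HVEM with BTLA, rose by 1.39 ± 0.29 (limma adjusted p = 0.0364). With the block the transcription factors had the largest share past the threshold of these lists. In all, 30 of the 124 pathway genes passed with the block, or 24.2%, close to the 20.5% of all genes. These were 6 higher and 2 lower of 20 transcription factors, 3 higher and 1 lower of 18 phosphatases and inhibitory adaptors, 3 higher of 18 signalling genes, 3 higher and 1 lower of 14 other inhibitory receptors, 1 higher and 3 lower of 15 ligands, 2 higher of 13 TNF receptor family genes, and 1 higher and 2 lower of 13 post-transcriptional and trafficking regulators, besides Ifng and Irf8. Among markers of other cells the blocked fit called 2 regulatory T cell genes higher, Gpr83 and Itgae, and Nrp1 lower, the CD8 T cell genes Runx3 and Gzmk lower, the myeloid gene Adgre1 higher and the erythroid gene Hba-a1 lower. The phosphatase gene Ptpn6, whose product acts below inhibitory receptors, was higher by 0.45 (blocked limma adjusted p = 0.0205) and Ptpn11, which acts below PD-1, lower at -0.79 (blocked limma adjusted p = 0.00433). Lck was higher at 0.55, Id3 at 1.55, Tcf7 at 0.76 and Trat1 at 1.32, and Lair1 was lower at -1.10 and Tbx21 at -1.02, all by the blocked fit alone.

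**Figure D5:**
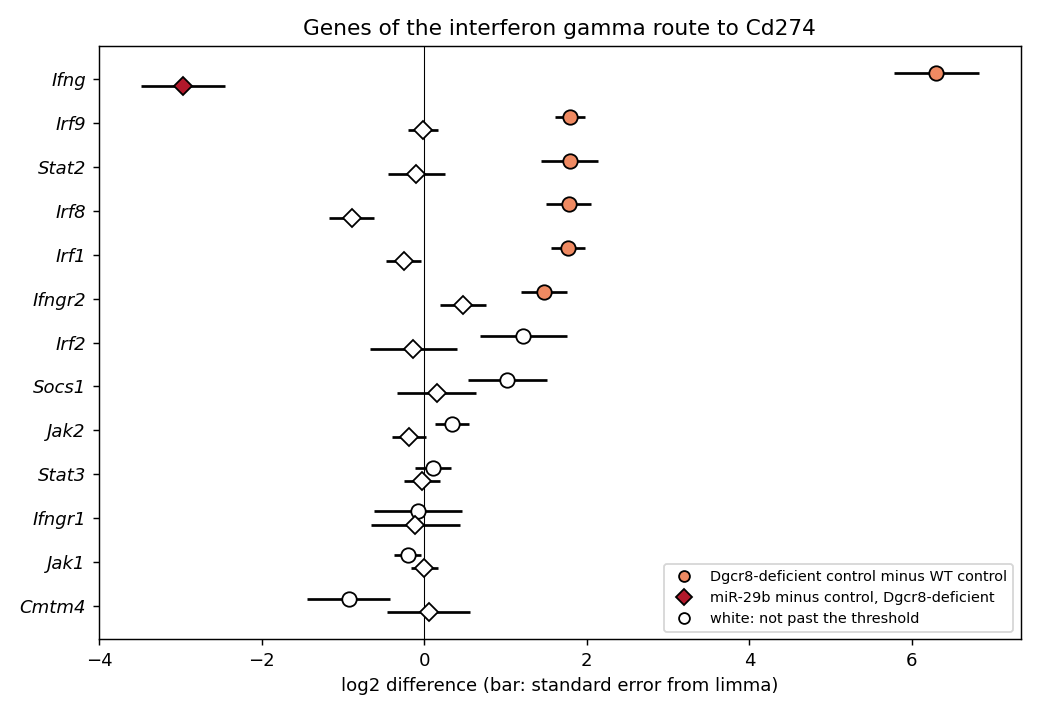
Log2 difference ± SE from limma (x axis) for the 13 tested genes of the interferon gamma route (y axis), between Dgcr8-deficient and wild-type controls (circles) and between miR-29b and control in Dgcr8-deficient cells (diamonds), filled where the gene passed without a block. Ifng is at 6.30 and -2.97, and Irf1 at 1.77 and -0.25.

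miR-29 inhibitors changed none of the 9 checkpoint genes past the threshold in wild-type cells. In limma 0 of 9 passed, where 0% of all genes passed. Of the 9, 0 had an unadjusted p under 0.05. Over all genes 63 had an unadjusted p under 0.05, and with the mouse modelled 0 genes passed. Icos was the gene whose groups did not overlap, with 3.85, 3.88 and 3.99 with inhibitors against 3.53, 3.81 and 3.65 with control inhibitors, and 2.86% of all genes did not overlap. It was higher in 3 of 3 mice, by 0.32, 0.07 and 0.34, as were 14.3% of all genes in 3 of 3 mice, a difference of 0.24 ± 0.18 that did not pass.

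Lag3 was also higher in 3 of 3 mice, by 0.77, 0.25 and 0.16, and its difference of 0.39 ± 0.65 did not pass. Cd274 and Pdcd1, which passed with miR-29b under the block, differed by 0.02 ± 0.42 and 0.11 ± 0.39, and each had both signs among the mice. The remaining 5 genes had differences between -0.20 for Btla and 0.10 for Pdcd1lg2. Of the 124 genes in the pathway lists around them 0 passed in limma, with or without the block, and 3 had an unadjusted p under 0.05. These were H2-Aa (1.83 ± 0.35), Maf (0.78 ± 0.26) and Eomes (0.59 ± 0.21), all higher with inhibitors.

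The difference between both effects was tested directly, as the change with miR-29b minus the change with inhibitors. Of the 9 genes, 0 passed in limma, where 0.17% of all genes did without the block and 5.64% with it, and 1 had an unadjusted p under 0.05. The same test over the 124 pathway genes called 0, with 12 at an unadjusted p under 0.05, and 11, or 8.87%, with the block. The checkpoint gene was Icos, with a difference of -0.58 ± 0.26 (limma adjusted p = 0.683, blocked adjusted p = 0.125). Its level was lower with miR-29b in 3 of 3 mice and higher with inhibitors in 3 of 3 mice. For Cd274 the difference was -0.68 ± 0.59 (limma adjusted p = 1.0, blocked adjusted p = 0.0817).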

How the data were processed

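RNA of 12 samples was labelled with Cy3 and hybridised to one-colour Agilent whole mouse genome arrays, per the labels' protocols. Spot intensity was deposited as scanner output, extracted with Agilent Feature Extraction 10.5.1.1 per the file headers, which subtracts background within each array only. A table of log2 values was deposited as well, for which the submitters' processing notes name limma and the scale and centring are unstated; these served as an alternative.

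Control and outlier-marked spots were left out, and each probe's mean log2 processed signal was set against the array's 75th percentile. Probes well above background on at least 3 arrays were kept (32308 of 41174), and the brightest kept probe stood for a gene. Accessions named 24844 probes through RefSeq tables. The fits used limma 3.58.1 (R 4.3.3). Only the fit without a block was checked on simulated data, whose arrays were independent, so the check does not cover arrays that share a mouse. The number of arrays limits the precision.

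Same-numbered arrays were taken as one mouse within a genotype, from the design text for Dgcr8-deficient mice and the shared number for wild-type mice. Their residuals correlated at 0.652, 0.613 and 0.753 in Dgcr8-deficient and 0.468, 0.722 and 0.430 in wild-type mice. Both arrays of each such mouse also shared a slide, so mouse and slide cannot be told apart by these values. Numbers shared across genotypes correlated at 0.238, -0.326 and -0.353 and were not taken as pairs. Of these, only number 2 was on the same slide in both genotypes. The members and gene lists were chosen with earlier results of these data known. Genes named are all members, the listed genes past the threshold in a comparison, or else up to 2 with the smallest p, and some that did not pass were added for their role. The normexp alternative (offset 50) used median spot signals, as mean signals were not used here. 2 listed genes are not reported here and are left out of the list counts.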

Additional observations from a re-analysis of the deposited data

How the results depend on the processing

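Of the calls between genotypes, Cd274 and Pdcd1lg2 held under all 19 alternative settings, while those of Cd28, Icos and Lag3 were lost under some. The number of checkpoint genes past the threshold there, 5, was 3 with quantile normalization, 4 with the mouse or the shared number as a replicate block, with no filter on dim probes, with the mean of a gene's probes or on the 6 arrays compared, 6 with scan day, 7 with slide, and 2 to 4 without one control array. Cd28 lost its call under quantile normalization and in each of these settings with 4 but the mouse block, where Icos did. Of all genes, 3271 passed, 6137 with slide and 5842 with scan day in the model. Without one array Pdcd1 ranged from -0.33 to 0.23.

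For miR-29b, 0 checkpoint genes passed, 2 with the mouse as a replicate block or slide, 1 with scan day. Among checkpoint genes the mouse block changed the calls of Cd274 and Pdcd1 here and of Icos between genotypes, and no other. Of all genes 338 passed, 624 with normexp, 568 in the authors' values, 3021 with the mouse, 2466 with slide, 1816 with scan day, 0 on the 6 arrays compared (1377 at an unadjusted p under 0.05), 113 without Dgcr8-deficient mouse 3 (an alternative chosen after seeing the data) and 111 to 270 without one array. Havcr2 was 0.55 with the mean of its 2 probes, which differed by -0.09 and 1.18, and 0.074 without mouse 3. Without one array the ranges were -0.074 to 0.60 for Pdcd1lg2, -0.021 to 0.51 for Ctla4, -0.23 to 0.52 for Cd28, -0.10 to 0.64 for Btla, -0.92 to 0.11 for Lag3 and -0.77 to 0.50 for Havcr2.

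For the inhibitors, Cd274 was -0.0012 in the authors' values. Without one array the ranges were -0.32 to 0.30 for Cd274, -0.11 to 0.51 for Pdcd1lg2, -0.10 to 0.41 for Pdcd1, -0.18 to 0.023 for Ctla4, -0.26 to 0.14 for Cd28, -0.48 to 0.20 for Btla and -0.27 to 0.44 for Havcr2.

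For the difference between effects, 25 of all genes passed (2 higher, 23 lower), 39 with quantile normalization, 105 with normexp (25 higher, 80 lower), 91 in the authors' values (21 higher, 70 lower), 59 with probes above background on all arrays, 832 with the mouse as a replicate block, 603 with slide, 438 with scan day, 15 without mouse 3 and 3 to 30 without one array. Havcr2 was 0.50 with the mean of its probes and 0.013 without mouse 3. Without one array the ranges were -0.35 to 0.49 for Pdcd1lg2, -0.20 to 0.56 for Cd28, -0.84 to 0.44 for Havcr2 and -0.022 to 0.56 for Pdcd1. The cause of these changes was not tested, and none of the reversed values passed the threshold. With 3 arrays per group, intervals are wide. That of Lag3 with miR-29b runs from -1.80 to 1.08 without a block. With the mouse modelled it runs from -1.22 to 0.49, so the width also depends on whether the pairing of arrays is modelled.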
